A study of Homo sapiens with 8 samples.

Results

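The 10 aldehyde dehydrogenase genes described here are ALDH1A1, ALDH1A2, ALDH1A3, ALDH1B1, ALDH2, ALDH3A1, ALDH3A2, ALDH3B1, ALDH7A1 and ALDH9A1. They were taken by symbol from a gene-level RNA-seq table of a pair of human liver cancer cell lines, and all 10 were found among its 18902 analysed genes. Levels are FPKM, a fragment count scaled to library size and divided by transcript length, which allows levels of different genes to be compared. Genes with a mean of at least 0.5 FPKM over the 8 libraries were tested, 13553 in number. Of the aldehyde dehydrogenases 9 passed this filter, while ALDH1A3 did not. ALDH1A2 passed through the libraries in which it was high. The same held for pathway genes named below that were low in the other state. Among these were CYP26A1, AASS, DHRS9, RBP4, STRA6, ADH1C and BBOX1.

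The cell lines were MHCC-97H and MHCC-97L, hepatocellular carcinoma lines derived from the same parental line and named for their high (H) and low (L) tendency to metastasize. Each was measured without and with stable lentiviral expression of human full-length wild-type OGT carrying a Flag tag, from a vector that also encodes luciferase, after drug selection of the transduced cells. OGT, O-GlcNAc transferase, attaches single N-acetylglucosamine sugars to nuclear and cytosolic proteins. The 4 groups of 2 libraries are MHCC-97H control, MHCC-97H Flag-OGT, MHCC-97L control and MHCC-97L Flag-OGT, all grown in DMEM with fetal calf serum. The controls carry no genotype label, and neither an empty vector in them, the time after selection nor the number of clones behind a Flag-OGT line is stated in the labels. The wider series concerns OGT on chromatin in liver cancer.

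Aldehyde dehydrogenases oxidize aldehydes to carboxylic acids with NAD+ or NADP+ as the acceptor, and the human genome encodes them as a large family. The ALDH1A enzymes make retinoic acid, the ligand of nuclear receptors, from retinal. Mitochondrial ALDH2 and ALDH1B1 oxidize acetaldehyde formed from ethanol, the ALDH3 enzymes act on aromatic, medium-chain and fatty aldehydes, and ALDH7A1 and ALDH9A1 on aldehydes that arise from lysine, choline and amines. In liver the family clears dietary, ethanol-derived and lipid-derived aldehydes, and ALDH1A1 and ALDH3A1 are widely used as markers of tumour cell subsets.

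The libraries grouped by the presence of Flag-OGT more closely than by line. On log2(FPKM + 1) values of tested genes, the correlation across genes was 0.997 to 0.999 between replicates. It was 0.957 to 0.963 between the lines within a state and 0.725 to 0.753 between the states within a line. Libraries that differed in both line and state correlated at 0.722 to 0.741, a range overlapping the last. OGT itself was at 32.5 and 34.2 FPKM in MHCC-97H control libraries against 59.0 and 58.4 FPKM in their Flag-OGT counterparts; levels in MHCC-97L were 45.7 and 43.9 FPKM without and 51.0 and 54.5 FPKM with it. The 9 hepatocyte markers looked at summed to 45.6 to 48.0 FPKM per library in the MHCC-97H controls and 131 to 134 FPKM in the MHCC-97L controls, against 1.76 to 2.21 and 2.26 to 4.41 FPKM with Flag-OGT. With Flag-OGT, all 9 were under 1 FPKM in both MHCC-97H libraries and 8 of 9 in both MHCC-97L libraries, with TTR listed at 0. The simple epithelium keratins KRT8 and KRT18 had means of 3846 and 1630 FPKM in MHCC-97H control libraries against 11.0 and 14.5 FPKM with Flag-OGT, and of 4134 and 2111 FPKM in MHCC-97L control libraries against 8.83 and 14.4 FPKM with Flag-OGT. Further marker values are given for MHCC-97H first and MHCC-97L second, controls before Flag-OGT. The other marker of that list, CDH1, was low throughout, at means of 2.86 and 1.65 FPKM against 1.86 and 0.785 FPKM. Biliary markers summed to 335 to 385 and 417 to 443 FPKM against 3.86 to 4.06 and 2.88 to 3.93 FPKM, mostly through KRT19 in the controls. SOX9 of that list had means of 2.50 and 12.6 FPKM against 3.34 and 2.15 FPKM, so it was higher with Flag-OGT in MHCC-97H. EPCAM was near 0 throughout. Endothelial markers summed to 31.2 to 31.3 and 43.6 to 45.8 FPKM against 0.63 to 0.79 and 1.46 to 1.56 FPKM, mostly through ESAM, while VWF and CDH5 were near 0 or listed at 0 throughout. The 6 leukocyte markers summed to 80.2 to 82.5 and 69.0 to 69.9 FPKM against 2.75 to 3.00 and 7.89 to 8.70 FPKM, a gap carried by CD68 (means 78.6 and 63.6 FPKM against 1.13 and 2.24 FPKM). PTPRC, the pan-leukocyte marker, had means of 0.305 and 0.485 FPKM against 0.335 and 0.605 FPKM. LYZ had higher means with Flag-OGT, 1.02 and 2.79 FPKM against 1.16 and 4.69 FPKM. The 6 fibroblast or stellate cell markers, which summed to 9.06 to 12.2 and 4.52 to 5.28 FPKM against 19.7 to 19.9 and 14.6 to 15.4 FPKM, went opposite ways. ACTA2 (means 0 and 0.080 FPKM against 15.6 and 8.81 FPKM) and COL1A1 were higher with Flag-OGT, LUM (10.0 and 4.48 FPKM against 0.035 and 0.040 FPKM) and DCN were lower, and COL1A2 was at or near 0. Of the liver tumour markers, GPC3 was listed at 0 in all 4 controls and had means of 29.3 and 4.22 FPKM with Flag-OGT, while AFP had means of 2.53 and 3.36 FPKM against 0.065 and 0.125 FPKM. The part of these markers in the results below was not tested. The cell line identity of each library, those with Flag-OGT included, rests on its label and was not tested. An effect of OGT and any other difference between the cultures behind the 2 states cannot be told apart, so each change below is a difference between libraries labelled Flag-OGT and controls labelled with the same line. The replicates are not stated to be separate cultures, so the p-values reflect spread among libraries that may be technical. In bulk RNA, fewer cells with a transcript and less of it per cell cannot be told apart.

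The summed level of the 10 genes was several times lower in the Flag-OGT libraries, and its makeup differed. It was 1417 and 1439 FPKM in MHCC-97H control libraries against 219 and 215 FPKM in their Flag-OGT counterparts. For MHCC-97L the sums were 2289 and 2270 FPKM without and 137 and 141 FPKM with Flag-OGT. As a share of all FPKM of a library, the sum went from 0.276% and 0.282% to 0.0410% and 0.0406% in MHCC-97H, and from 0.409% and 0.403% to 0.0224% and 0.0232% in MHCC-97L. In the controls ALDH1A1 and ALDH3A1 held most of the sum. ALDH1A1 gave 50.1% ± 2.47 (SD, n = 2) of it in MHCC-97H and 39.1% ± 0.309 (n = 2) in MHCC-97L, and ALDH3A1 gave 31.5% ± 2.98 (n = 2) and 43.1% ± 0.639 (n = 2). With Flag-OGT both together were below the share of any of ALDH9A1, ALDH2, ALDH7A1 and ALDH1B1. ALDH2 then gave 23.5% ± 0.358 (n = 2) in MHCC-97H and 25.1% ± 0.230 (n = 2) in MHCC-97L, ALDH9A1 24.9% ± 0.448 (n = 2) and 18.2% ± 1.86 (n = 2), and ALDH7A1 15.8% ± 0.0517 (n = 2) and 21.2% ± 0.792 (n = 2). Sums and shares are given as a description and were not tested.

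**Figure D1:**
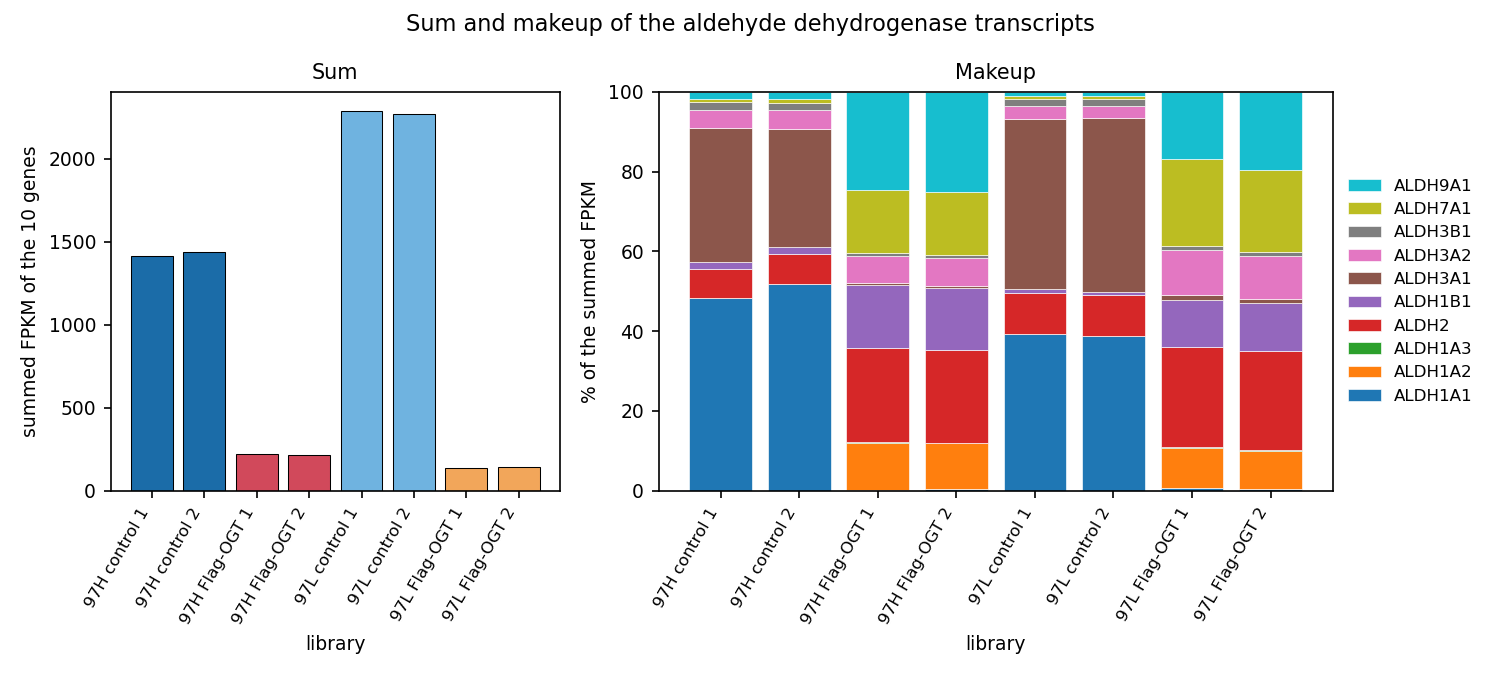
Left, summed FPKM of the 10 aldehyde dehydrogenase genes in each of the 8 libraries; right, the percent of that sum held by each gene. The control bars reach 1417 to 2289 FPKM and are mostly ALDH1A1 and ALDH3A1, whereas the Flag-OGT bars reach 137 to 219 FPKM and are mostly ALDH2, ALDH9A1, ALDH7A1 and ALDH1B1.

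All 9 tested genes were called at a Benjamini-Hochberg adjusted p under 0.05 (limma) in both Flag-OGT comparisons. Calls were the rule among all genes, 84.6% of those tested in MHCC-97H and 84.8% in MHCC-97L, so the number of calls says nothing particular about the family, and the sizes carry the description. In MHCC-97H 5 of the 9 were lower with Flag-OGT and 4 higher, against 36.3% and 48.2% of all tested genes. In MHCC-97L 6 were lower and 3 higher, against 34.7% and 50.1% of all tested genes. The excess of higher calls among all genes varied in size with the scaling. In MHCC-97H it was 6537 higher and 4923 lower, but 5695 and 5758 with median-of-ratios scaling. With FPKM rescaled to a common sum it was 6302 and 5132, and with quantile normalization 5925 and 5603. In MHCC-97L the 6792 higher and 4702 lower became 5787 and 5625, 6222 and 5208, and 6661 and 4804, in the same order. The median log2 change of the 9 was -1.04 in MHCC-97H and -2.15 in MHCC-97L, beside 0.15 and 0.19 for all tested genes. The changes of all genes were thus centred slightly above 0, and with median-of-ratios scaling of the libraries that centre lay at -0.003 and 0.02. The 2 genes most abundant in the controls, ALDH1A1 and ALDH3A1, had the deepest falls in both lines.

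**Figure D2:**
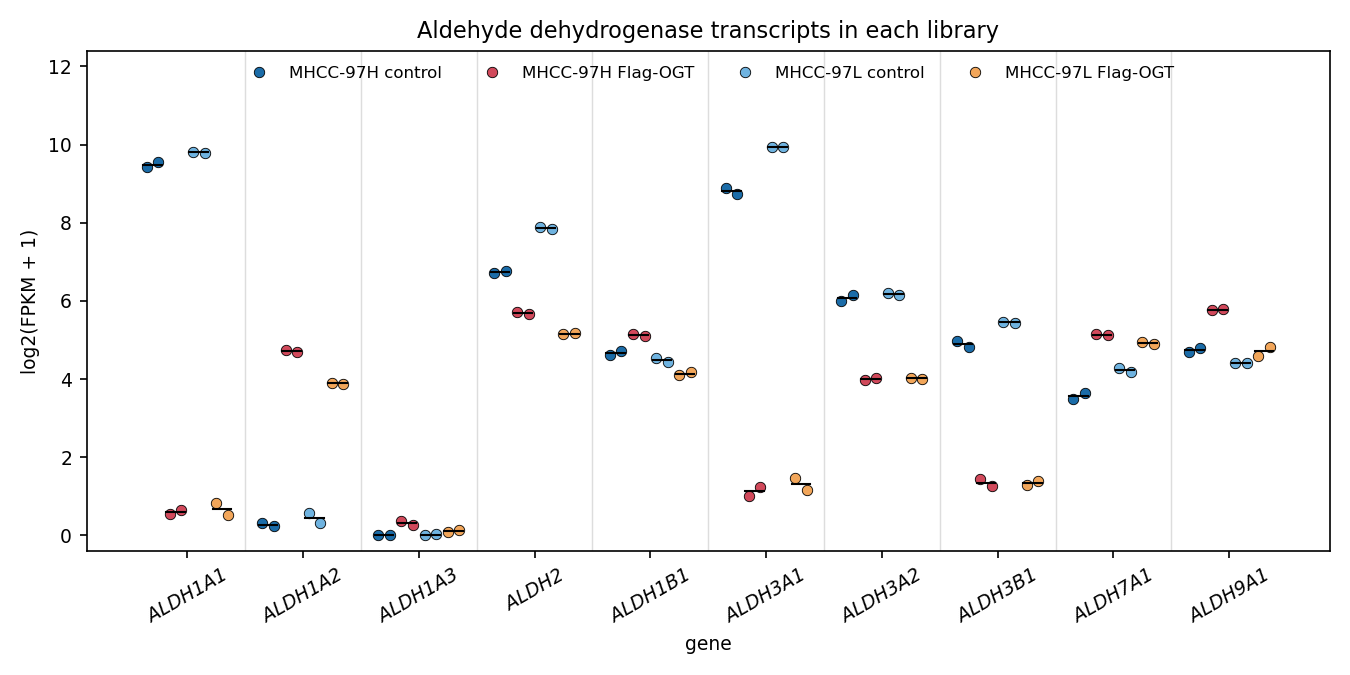
Level of each aldehyde dehydrogenase gene as log2(FPKM + 1); each point is a library, 2 per group, and black bars are group means. ALDH1A1, ALDH3A1, ALDH3B1 and ALDH3A2 lie far lower in the Flag-OGT libraries of both lines, and ALDH1A2 lies far higher.

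Among the retinal-oxidizing genes, ALDH1A1 was nearly lost and ALDH1A2 appeared. ALDH1A1, the cytosolic retinal dehydrogenase of adult liver, was at 686 and 747 FPKM in MHCC-97H control libraries against 0.46 and 0.58 FPKM in their Flag-OGT counterparts. It was at 900 and 882 FPKM in MHCC-97L control libraries against 0.78 and 0.44 FPKM in their Flag-OGT counterparts. Every control library was thus far above every Flag-OGT library, and no Flag-OGT library reached 1 FPKM. Its log2 change was -8.88 ± 0.09 (SE; limma, adjusted p = 7.2e-13) in MHCC-97H and -9.12 ± 0.09 (adjusted p = 8.0e-13) in MHCC-97L, ranks 11 and 6 from the lowest among 13553 tested genes.

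ALDH1A2, the retinal dehydrogenase best known from the embryo, was at 0.24 and 0.18 FPKM in MHCC-97H control libraries and rose to 25.6 and 25.0 FPKM with Flag-OGT. In MHCC-97L it went from 0.48 and 0.25 FPKM to 14.0 and 13.6 FPKM. The log2 changes were 4.44 ± 0.09 (adjusted p = 1.8e-11) and 3.45 ± 0.09 (adjusted p = 1.3e-10), ranks 106 and 137 from the highest. Since the added 1 FPKM damps changes from such low levels, the log2 changes with a pseudocount of 0.1 were larger, up to 6.36 in MHCC-97H and 4.95 in MHCC-97L. RefSeq places an antisense transcript, ALDH1A2-AS1, within the gene. No source used here says whether counting was strand-aware, so reads of both could not be told apart.

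ALDH1A3, the third retinal dehydrogenase, was listed at 0 in both MHCC-97H controls and at 0 and 0.02 FPKM in the MHCC-97L controls. With Flag-OGT it was at 0.29 and 0.21 FPKM in MHCC-97H and at 0.07 and 0.10 FPKM in MHCC-97L. It stayed under 0.5 FPKM in every library and was not tested. As a result the sum of the trio, 686 to 900 FPKM in the controls, was 14.2 to 26.4 FPKM with Flag-OGT and consisted almost wholly of ALDH1A2.

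The sequence just before the annotated start of these 3 genes is shown because ALDH1A1 and ALDH1A2, enzymes for the same reaction, moved in opposite directions in both lines. Each line gives the 250 bases before the RefSeq start (GRCh38.p14), 5′ to 3′ on the gene's strand, ALDH1A1 at chr9:72953054-72953303 (minus strand), ALDH1A2 at chr15:58065712-58065961 (minus strand) and ALDH1A3 at chr15:100879581-100879830 (plus strand).
ALDH1A1: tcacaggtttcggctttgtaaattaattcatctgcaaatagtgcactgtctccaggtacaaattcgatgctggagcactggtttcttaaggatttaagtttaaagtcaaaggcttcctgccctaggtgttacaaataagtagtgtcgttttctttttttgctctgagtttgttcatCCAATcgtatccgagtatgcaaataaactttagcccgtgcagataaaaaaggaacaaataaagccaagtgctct
ALDH1A2: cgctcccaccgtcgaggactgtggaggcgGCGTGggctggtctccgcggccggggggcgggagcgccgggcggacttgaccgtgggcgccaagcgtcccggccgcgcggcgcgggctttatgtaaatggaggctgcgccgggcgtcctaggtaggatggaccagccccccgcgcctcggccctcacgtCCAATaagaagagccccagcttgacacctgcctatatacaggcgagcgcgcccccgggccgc
ALDH1A3: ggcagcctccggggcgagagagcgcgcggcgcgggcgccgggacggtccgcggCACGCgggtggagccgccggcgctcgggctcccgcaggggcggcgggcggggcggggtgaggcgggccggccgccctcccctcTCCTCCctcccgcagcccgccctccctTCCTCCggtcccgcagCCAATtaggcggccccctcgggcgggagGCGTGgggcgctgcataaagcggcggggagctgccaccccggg
Capitals mark matches on either strand to CCAAT, to GCGTG, the core bound by the aryl hydrocarbon receptor, and to GGAGGA, the repeated unit of the motif of ZNF263, the zinc-finger protein of the series; TATAAA and TGACNNNGC, the core of the antioxidant response element, were also searched. CCAAT lay 70 to 74 bases before the start of ALDH1A1, 58 to 62 before that of ALDH1A2 and 67 to 71 before that of ALDH1A3, and 32.0% of all 35116 RefSeq windows of this length held it. The windows differ in composition. ALDH1A1 has 38.4% G and C with a CpG ratio, observed over expected, of 0.651, whereas ALDH1A2 has 72.8% and 0.997 and ALDH1A3 has 82.4% and 0.897; the medians over all windows were 58.0% and 0.558. GGAGGA was in the ALDH1A3 window at 2 places and in neither of the other two, against 31.8% of all windows, and GCGTG (32.2% of all windows) was in those of ALDH1A2 and ALDH1A3. TATAAA (10.7% of all windows) and TGACNNNGC (10.9%) had no match in the 3 windows. A match is a string of letters, the start used in these cells was not measured, and ALDH1A2 has a second RefSeq start whose window held none of the 5 motifs.

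Of the mitochondrial acetaldehyde enzymes, ALDH2 fell in both lines and ALDH1B1 moved in opposite directions. ALDH2, the main acetaldehyde-oxidizing enzyme of liver, was at 103 and 109 FPKM in MHCC-97H control libraries against 51.9 and 50.1 FPKM in their Flag-OGT counterparts. The MHCC-97L libraries held 237 and 229 FPKM without and 34.7 and 35.1 FPKM with Flag-OGT. The log2 changes were -1.04 ± 0.05 (SE; limma, adjusted p = 1.6e-08) and -2.71 ± 0.05 (adjusted p = 1.8e-11). The line with more ALDH2 in the controls thus had less of it with Flag-OGT.

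ALDH1B1, a mitochondrial enzyme that also accepts retinal, was at 23.5 and 25.3 FPKM in MHCC-97H control libraries against 34.5 and 33.4 FPKM in their Flag-OGT counterparts, a log2 change of 0.46 ± 0.06 (adjusted p = 5.4e-05). The MHCC-97L libraries held 22.2 and 20.9 FPKM without and 16.2 and 17.1 FPKM with Flag-OGT, which is a log2 change of -0.35 ± 0.06 (adjusted p = 4.2e-04). Control and Flag-OGT libraries did not overlap in either line. The rise in MHCC-97H and the fall in MHCC-97L were called under each of 17 alternatives other than a 2-fold minimum, with values of 0.26 to 0.51 and -0.55 to -0.31. It was the only one of the 9 tested genes called in opposite directions in the 2 lines.

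All 3 ALDH3 genes fell in both lines. ALDH3A1, a cytosolic enzyme for aromatic and medium-chain aldehydes that is low in normal liver, was at 477 and 423 FPKM in MHCC-97H control libraries against 1.03 and 1.36 FPKM in their Flag-OGT counterparts. It was at 976 and 988 FPKM in MHCC-97L control libraries against 1.78 and 1.23 FPKM in their Flag-OGT counterparts. The log2 changes of -7.68 ± 0.11 (adjusted p = 3.1e-12) and -8.63 ± 0.11 (adjusted p = 1.7e-12) ranked 24 and 15 from the lowest. Whereas the control levels of the lines were far apart, all 4 Flag-OGT libraries lay within 1 FPKM of each other.

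ALDH3A2, the fatty aldehyde dehydrogenase of the endoplasmic reticulum that acts on products of sphingolipid breakdown, was at 62.5 and 69.5 FPKM in MHCC-97H control libraries against 14.9 and 15.2 FPKM in their Flag-OGT counterparts. In MHCC-97L it went from 72.2 and 69.9 FPKM to 15.4 and 15.2 FPKM. The log2 changes were -2.06 ± 0.06 (adjusted p = 3.8e-10) and -2.15 ± 0.06 (adjusted p = 3.4e-10). Unlike its relatives it kept a level near 15 FPKM in all 4 Flag-OGT libraries. ALDH3B1, which oxidizes medium- and long-chain aldehydes at membranes, was at 30.5 and 27.5 FPKM in MHCC-97H control libraries against 1.71 and 1.41 FPKM in their Flag-OGT counterparts. Levels in MHCC-97L were 43.1 and 42.3 FPKM without and 1.43 and 1.61 FPKM with Flag-OGT. Its log2 changes were -3.55 ± 0.08 (adjusted p = 5.4e-11) and -4.12 ± 0.08 (adjusted p = 2.3e-11). Its close paralog ALDH3B2, with which it may share reads, was listed at 0 in 7 libraries and at 0.02 FPKM in the other.

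The enzymes of lysine- and choline-derived aldehydes were higher with Flag-OGT. ALDH7A1, which oxidizes the semialdehyde formed in lysine breakdown and also betaine aldehyde, was at 10.2 and 11.5 FPKM in MHCC-97H control libraries against 34.6 and 33.9 FPKM in their Flag-OGT counterparts. In MHCC-97L it went from 18.5 and 17.2 FPKM to 29.9 and 29.0 FPKM. The log2 changes were 1.57 ± 0.07 (adjusted p = 7.1e-09) and 0.69 ± 0.07 (adjusted p = 5.2e-06). The lines were farther apart in the controls than with Flag-OGT.

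ALDH9A1, which serves carnitine synthesis and the oxidation of aminoaldehydes, was at 24.7 and 26.5 FPKM in MHCC-97H control libraries against 53.7 and 54.3 FPKM in their Flag-OGT counterparts, a log2 change of 1.05 ± 0.08 (adjusted p = 4.2e-07). The MHCC-97L libraries held 20.4 and 20.2 FPKM without and 23.2 and 27.5 FPKM with Flag-OGT, which is a log2 change of 0.30 ± 0.08 (adjusted p = 4.3e-03). This smaller gain depended on the scaling, being 0.19 (adjusted p = 0.0506) with FPKM rescaled to a common sum and 0.10 (adjusted p = 0.207) with median-of-ratios scaling. OGT, the introduced gene, likewise had a log2 gain of 0.23 in MHCC-97L (adjusted p = 3.4e-03) that was 0.11 (adjusted p = 0.0986) and 0.02 (adjusted p = 0.685) under these scalings.

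**Figure D3:**
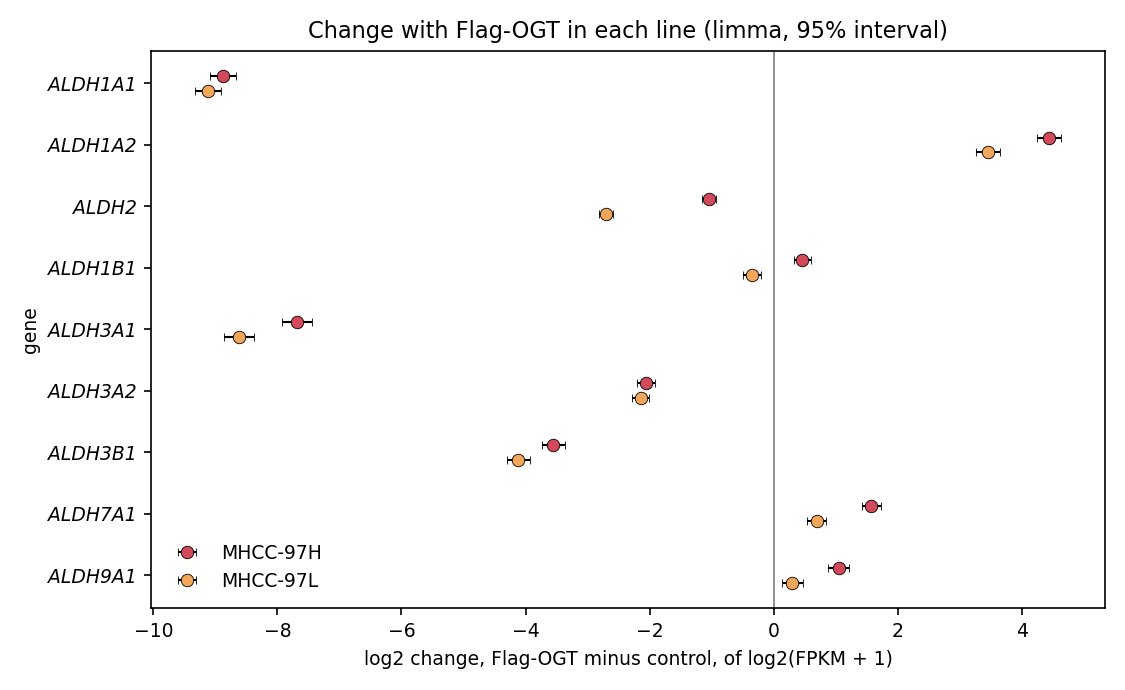
Log2 change of log2(FPKM + 1), Flag-OGT minus control, of the 9 tested genes in MHCC-97H (red) and MHCC-97L (orange); bars are 95% intervals of the limma fit. Losses reach -9.12 (ALDH1A1 in MHCC-97L) and gains 4.44 (ALDH1A2 in MHCC-97H), ALDH1B1 lies on opposite sides of 0, and for every gene the MHCC-97L point lies to the left of the MHCC-97H point, a difference not called for ALDH1A1 and ALDH3A2 and of opposite sign for ALDH3A2 with quantile normalization.

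The changes with Flag-OGT differed between the lines for most of these genes, as they did for most tested genes. The number of calls thus says little about the family. The change in MHCC-97H minus that in MHCC-97L was called above 0 for 7 of the 9 tested genes and below 0 for 0, where 63.3% of all tested genes were called, 33.9% above and 29.4% below. This balance of all genes, 4597 above and 3979 below, turned to 4083 and 4945 with quantile normalization, under which 8 of the 9 genes were called above 0 and 0 below. Without that normalization all 9 estimates lay above 0, so the count below 0 is 0 at any p threshold. The widest difference was that of ALDH2, 1.66 ± 0.07 (adjusted p = 1.2e-07), followed by ALDH1A2 with 1.00 ± 0.12 (adjusted p = 8.1e-05). For ALDH1A1 the difference was 0.24 with a 95% interval of -0.06 to 0.54 (adjusted p = 0.141); it was called with quantile normalization (0.40, adjusted p = 0.0173) and without the first MHCC-97L Flag-OGT library (0.39, adjusted p = 0.0113). For ALDH3A2 it was 0.09, with an interval of -0.11 to 0.28 (adjusted p = 0.411). The comparison in MHCC-97H and that in MHCC-97L share no libraries, but they share the spread estimated over all 8.

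Without Flag-OGT, MHCC-97L held more of several of these transcripts than MHCC-97H. ALDH2 (log2 difference, MHCC-97H minus MHCC-97L, -1.13 ± 0.05, adjusted p = 9.2e-08) and ALDH3A1 (-1.13 ± 0.11, adjusted p = 1.2e-05) were about 2.20 and 2.18 times as high in MHCC-97L by mean FPKM. ALDH7A1 (-0.67, adjusted p = 2.1e-05), ALDH3B1 (-0.54, adjusted p = 2.4e-04) and ALDH1A1 (-0.32, adjusted p = 0.0141) were also lower in MHCC-97H. ALDH9A1 (0.32, adjusted p = 4.6e-03) and ALDH1B1 (0.17, adjusted p = 0.0335) were higher there. These 2 higher and 5 lower of 9 stand beside 26.5% and 38.9% of all tested genes (65.4% called in all), a background of 3589 higher and 5270 lower that turned to 4937 and 4106 with median-of-ratios scaling, 4674 and 4230 with a common sum and 4547 and 3963 with quantile normalization. The ALDH1A1 call was lost with a common sum (adjusted p = 0.104), with median-of-ratios scaling (adjusted p = 0.152), with a pseudocount of 0.1 (adjusted p = 0.18), without the first MHCC-97H control (adjusted p = 0.0832) and without either MHCC-97L control (adjusted p = 0.0674 and 0.0502). The ALDH1B1 call was lost without the second MHCC-97H control (adjusted p = 0.149), the second MHCC-97L control (adjusted p = 0.198) or either MHCC-97H Flag-OGT library (adjusted p = 0.0587 and 0.0586), and with these groups fitted alone (adjusted p = 0.0788). ALDH3A2 differed by -0.11, with a 95% interval of -0.24 to 0.03 (adjusted p = 0.157).

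With Flag-OGT the order of the lines turned for ALDH2 and ALDH7A1. ALDH2 was higher in MHCC-97H Flag-OGT than in MHCC-97L Flag-OGT by 0.54 ± 0.05 on the log2 scale (adjusted p = 9.7e-06), ALDH1B1 by 0.98 ± 0.06 (adjusted p = 7.8e-07), ALDH9A1 by 1.07 ± 0.08 (adjusted p = 1.7e-06) and ALDH1A2 by 0.83 ± 0.09 (adjusted p = 1.8e-05). ALDH7A1 was higher by 0.21 ± 0.07 (adjusted p = 0.0202), a call lost without either MHCC-97H Flag-OGT library (adjusted p = 0.103 and 0.0684) and without the second MHCC-97L Flag-OGT library (adjusted p = 0.0901). These 5 higher and 0 lower of 9 (also 0 lower at an unadjusted p under 0.05) stand beside 33.6% and 36.1% of all tested genes (69.7% called in all), or 4551 higher and 4894 lower, a split that was 5679 and 3760 with median-of-ratios scaling and 5932 and 3547 with a common sum. The 4 genes with the deepest falls in MHCC-97H did not pass the test between the lines. Their differences were -0.08 for ALDH1A1 (95% interval -0.29 to 0.13), -0.19 for ALDH3A1 (-0.43 to 0.06), 0.02 for ALDH3B1 (-0.16 to 0.20) and -0.02 for ALDH3A2 (-0.16 to 0.12). Without the second MHCC-97L Flag-OGT library, ALDH1A1 (-0.23, adjusted p = 0.0327) and ALDH3A1 (-0.34, adjusted p = 0.0213) were called.

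The order of levels was similar in both lines within a state. In the MHCC-97H controls it ran from ALDH1A1 through ALDH3A1, ALDH2, ALDH3A2, ALDH3B1, ALDH9A1, ALDH1B1 and ALDH7A1 to ALDH1A2 and ALDH1A3, and only ALDH9A1 and ALDH1B1 overlapped in their libraries. In the MHCC-97L controls ALDH3A1 stood above ALDH1A1 and ALDH1B1 above ALDH9A1. In MHCC-97H Flag-OGT the order was ALDH9A1, ALDH2, ALDH7A1, ALDH1B1, ALDH1A2, ALDH3A2, ALDH3B1, ALDH3A1, ALDH1A1 and ALDH1A3, where ALDH7A1 and ALDH1B1 overlapped. In MHCC-97L Flag-OGT it began with ALDH2, ALDH7A1, ALDH9A1, ALDH1B1, ALDH3A2 and ALDH1A2 and ended with the same 4 genes, of which ALDH3B1 and ALDH3A1 overlapped.

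The remaining family members moved mostly upward. Of 9 further ALDH genes 7 were tested, of which 5 were called higher and 1 lower with Flag-OGT in MHCC-97H, against 6 and 0 in MHCC-97L, beside the shares of all genes given above; the median log2 changes were 0.93 and 0.71. At an unadjusted p under 0.05 1 more, ALDH16A1 (-0.19), was lower in MHCC-97L. ALDH1L2, the mitochondrial enzyme that oxidizes formyl-tetrahydrofolate, rose from 0.30 and 0.44 to 10.0 and 10.1 FPKM in MHCC-97H (log2 change 3.02 ± 0.08, adjusted p = 1.2e-10) and from 0.76 and 0.65 to 3.83 and 3.99 FPKM in MHCC-97L (1.53 ± 0.08, adjusted p = 2.3e-08). ALDH18A1, which makes the proline precursor from glutamate, rose from 33.0 and 33.6 to 75.3 and 71.6 FPKM in MHCC-97H (1.12, adjusted p = 1.0e-08) and from 22.8 and 23.3 to 69.4 and 68.4 FPKM in MHCC-97L (1.54, adjusted p = 1.1e-09). With a common sum 6 rose and 1 fell in MHCC-97L, and with median-of-ratios scaling 4 rose and 1 fell, as ALDH5A1 and ALDH4A1 lost their calls. ALDH1L1 and ALDH3B2 were at 0.02 FPKM or less in every library.

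Genes of retinoid handling went both ways. Of 22 tested 8 were called higher and 11 lower with Flag-OGT in MHCC-97H, against 7 and 14 in MHCC-97L, with median log2 changes of -0.54 and -0.55, where 48.2% and 36.3% of all tested genes were higher and lower in MHCC-97H and 50.1% and 34.7% in MHCC-97L. With median-of-ratios scaling 6 were higher and 12 lower in MHCC-97H, where RDH13 changed sign and lost its call. STRA6, the membrane receptor that takes up retinol, fell from 24.2 and 24.3 to 0.40 and 0.45 FPKM in MHCC-97H (log2 change -4.15, adjusted p = 5.7e-12) and from 78.7 and 80.7 to 0.12 and 0.21 FPKM in MHCC-97L (-6.12, adjusted p = 1.1e-12). DHRS9, a retinol-oxidizing dehydrogenase, went from 33.3 and 39.4 FPKM to listings of 0 in MHCC-97H (adjusted p = 2.3e-11). CYP26A1, which degrades retinoic acid, rose from 0 and 0.05 to 2.79 and 2.77 FPKM in MHCC-97H (1.88, adjusted p = 1.2e-09) and from 0.03 in both controls to 2.74 and 2.69 FPKM in MHCC-97L (1.85, adjusted p = 1.7e-09). RBP4, the plasma retinol carrier, fell in both lines, in MHCC-97L from 32.9 and 30.8 FPKM to 0 and 0.07 FPKM (adjusted p = 1.4e-11).

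The same shares of all genes, 48.2% higher and 36.3% lower in MHCC-97H and 50.1% and 34.7% in MHCC-97L, stand beside each count of the 4 lists that follow. The ethanol and acetate genes and those around the aryl hydrocarbon receptor, of whose battery ALDH3A1 is a classical member, are given next. Of 7 tested alcohol dehydrogenase and acetate genes 3 were called higher and 3 lower with Flag-OGT in MHCC-97H, against 1 and 5 in MHCC-97L (median log2 changes -0.03 and -1.05); with median-of-ratios scaling the counts were 3 and 4 with a median of -0.23 in MHCC-97H, and 1 and 6 in MHCC-97L. ADH1C, an ethanol-oxidizing dehydrogenase of liver, fell from 65.6 and 67.6 FPKM to 0 and 0.03 FPKM in MHCC-97L (adjusted p = 1.9e-12), and was at 1.74 and 1.42 FPKM in the MHCC-97H controls. ACSS1, which activates acetate in mitochondria, rose in MHCC-97H (3.00 and 3.36 to 9.79 and 10.1 FPKM, adjusted p = 1.4e-08) and fell in MHCC-97L (22.6 and 22.7 to 4.82 and 5.01 FPKM, adjusted p = 1.1e-09), with a called difference of 3.39 between these changes (adjusted p = 1.0e-08). Of 8 aryl hydrocarbon receptor genes 3 were called higher and 4 lower with Flag-OGT in MHCC-97H, against 2 and 5 in MHCC-97L (medians -0.88 and -0.95). NQO1, the quinone reductase, fell in MHCC-97H (684 and 694 to 1.94 and 1.34 FPKM, log2 change -8.04, adjusted p = 9.7e-13) and in MHCC-97L (-7.37, adjusted p = 1.6e-12). AHR, the receptor itself, went from 12.03 and 13.46 to 1.28 and 1.22 FPKM in MHCC-97H (-2.61, adjusted p = 2.4e-10), while AHRR, its repressor, rose from 0.63 and 0.57 to 5.75 and 5.82 FPKM (2.08, adjusted p = 7.4e-10). Their log2 changes in MHCC-97L were -2.53 and 1.85. CYP1A1 of the same list was under 1 FPKM in every library. It was called higher in MHCC-97H (0.28 and 0.30 to 0.93 and 0.77 FPKM, log2 change 0.52, adjusted p = 5.8e-04). In MHCC-97L it was called lower (0.58 and 0.92 to 0.17 and 0.25 FPKM, -0.53, adjusted p = 5.3e-04). Its call in MHCC-97H was lost with quantile normalization.

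Genes of the pathways around ALDH3A2, ALDH7A1 and ALDH9A1 went both ways. Of 11 tested genes of the sphingosine 1-phosphate and fatty alcohol route 3 were called higher and 6 lower with Flag-OGT in MHCC-97H, against 4 and 4 in MHCC-97L, with medians of -0.19 and 0.03; the latter was -0.07 with a common sum, -0.13 with median-of-ratios scaling and -0.01 with quantile normalization. SGPL1, the lyase that releases the fatty aldehyde oxidized by ALDH3A2, rose from 6.79 and 6.88 to 12.8 and 14.1 FPKM in MHCC-97H (0.88, adjusted p = 1.3e-06) and from 4.47 and 3.94 to 10.4 and 10.3 FPKM in MHCC-97L (1.12, adjusted p = 2.0e-07), while ALDH3A2 fell. SPHK1, which makes sphingosine 1-phosphate, fell from 62.0 and 52.4 to 8.97 and 9.30 FPKM in MHCC-97H (-2.52, adjusted p = 5.6e-10) and from 20.2 and 19.7 to 12.7 and 13.5 FPKM in MHCC-97L (-0.57, adjusted p = 6.5e-05). These changes differed by -1.94 (adjusted p = 6.4e-07). Of 11 choline, lysine and carnitine genes 8 were called higher and 3 lower with Flag-OGT in MHCC-97H, against 7 and 3 in MHCC-97L (medians 1.00 and 0.39). With median-of-ratios scaling 6 were higher and 3 lower in either line, with medians of 0.80 and 0.20, and PIPOX changed sign in MHCC-97H with quantile normalization. AASS, the first enzyme of lysine breakdown and upstream of ALDH7A1, rose from 0.18 and 0.24 to 4.61 and 4.4 FPKM in MHCC-97H (2.19, adjusted p = 4.2e-09) and from 0.34 and 0.56 to 7.56 and 8.42 FPKM in MHCC-97L (2.63, adjusted p = 1.2e-09). BBOX1, the last enzyme of carnitine synthesis and downstream of ALDH9A1, fell from 1.11 and 1.59 to 0.03 and 0 FPKM in MHCC-97H (-1.20, adjusted p = 7.3e-07) and from 2.64 and 2.72 to 0.12 and 0.07 FPKM in MHCC-97L (-1.75, adjusted p = 4.2e-08).

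**Figure D4:**
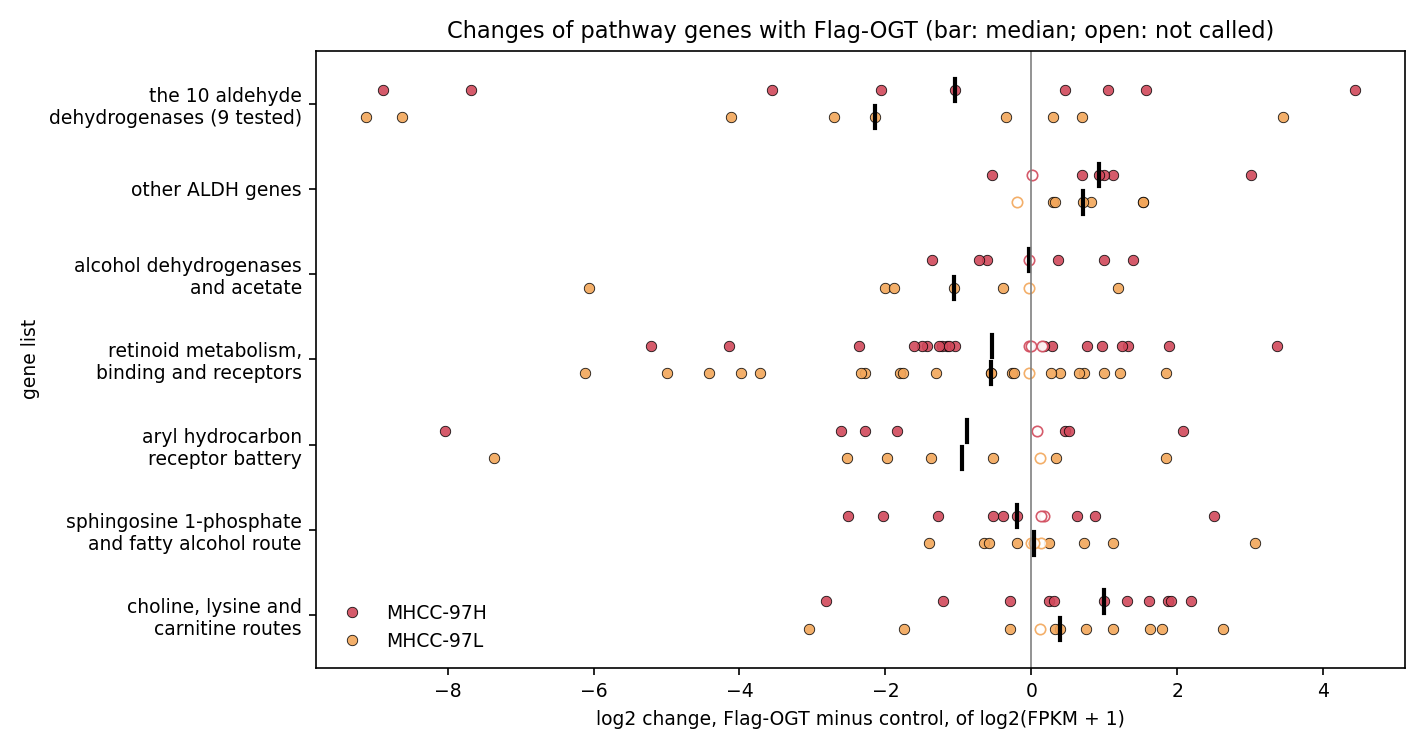
Log2 change with Flag-OGT of each tested gene in the aldehyde dehydrogenase family and 6 pathway lists, in MHCC-97H (red) and MHCC-97L (orange); filled points were called, open points were not, and black bars are list medians. The 9 tested aldehyde dehydrogenases spread from -9.12 to 4.44, the further ALDH genes lie mostly above 0 with medians of 0.93 and 0.71, and each other list holds genes on both sides of 0.

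The genes whose pattern over the 8 libraries was most like that of ALDH1A1 and ALDH3A1, the members with the widest range, were found by the Euclidean distance between mean-centred log2(FPKM + 1) profiles. For ALDH1A1 they were CES1, a carboxylesterase of liver (distance 0.45), AKR1C3, an aldo-keto reductase (0.48), and PTGR1, which reduces unsaturated carbonyls (0.54). CES1 was at mean levels of 520 and 585 FPKM in the MHCC-97H and MHCC-97L controls, against 0.145 and 0.265 FPKM with Flag-OGT. For ALDH3A1 they were SPP1, encoding osteopontin (0.67), the cell adhesion gene CEACAM6 (0.91) and the receptor LTBR (0.94). SPP1, like ALDH3A1, had a higher mean in the MHCC-97L controls, 344 FPKM, than in the MHCC-97H controls, 153 FPKM. Between ALDH1A1 and ALDH3A1 the distance was 1.47, and the nearest pair within the family was ALDH1B1 and ALDH9A1 with 0.90. That pair still changed in opposite directions with Flag-OGT in MHCC-97L, by -0.35 for ALDH1B1 and by 0.30, which depended on the scaling, for ALDH9A1. These distances describe 8 libraries in 4 groups and carry no test.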

How the data were processed

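The FPKM values were deposited by the authors as a gene-level table with 1 column per library, rounded to 2 decimals. RNA came from Trizol extraction and went into SMARTer libraries, per the labels' protocols. Per the submitters' processing notes, Bowtie2, HISAT2 2.1.0, RSEM 1.2.4, DESeq2 1.18.1 and hg19 were used; their roles are not stated there. Read depth is unknown, summed FPKM per library being 510449 to 613101. The chromatin immunoprecipitation libraries were not analysed here.

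Of 18928 features, 26 with a date as symbol were left out; 55 with a number as symbol were tested and never named. Log2(FPKM + 1) of the 13553 genes with a mean of at least 0.5 FPKM entered a limma 3.58.1 model (R 4.3.3) of the 4 groups with trended empirical Bayes variances, leaving 4 residual degrees of freedom. Benjamini-Hochberg adjustment covered every tested gene. Fold changes on this scale understate those of low genes. The procedure was tested on simulated data in which far fewer genes changed than were called here, so that test does not cover the present setting. Exact 0 values may be failed estimates.

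The members and lists were chosen with earlier results of these data known. Named genes were all members, OGT, further ALDH genes, up to 2 called genes at either end of each list in either Flag-OGT comparison, given as a selection of these, and the 3 nearest profiles of the 2 widest-ranging members. ALDH4A1 and ALDH5A1 were named after their values were seen. Promoter windows came from RefSeq (GRCh38.p14) for 8 of the 10 members; ALDH2 and ALDH3A1 were not matched. Tables and figures used Python 3.11.15, pandas 2.3.3, numpy 2.4.6 and matplotlib 3.10.9. The values of 1 gene of the retinoid list are not reported here.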

Additional observations from a re-analysis of the deposited data

Results flagged for a closer look

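By the interaction term of the limma fit 63.3% of all tested genes were called, so the number of calls says little about the family. The change with Flag-OGT differed by that term between MHCC-97H and MHCC-97L for 7 of the 9 tested genes. As the change in MHCC-97H minus that in MHCC-97L on the log2 scale, it was 1.66 for ALDH2 (adjusted p = 1.2e-07), 1.00 for ALDH1A2 (adjusted p = 8.1e-05), 0.94 for ALDH3A1 (adjusted p = 4.9e-04) and 0.88 for ALDH7A1 (adjusted p = 4.2e-05). It was 0.81 for ALDH1B1 (adjusted p = 3.7e-05), 0.75 for ALDH9A1 (adjusted p = 2.5e-04) and 0.57 for ALDH3B1 (adjusted p = 1.9e-03). Among these, ALDH1B1 rose in both MHCC-97H Flag-OGT libraries and fell in both of MHCC-97L. ALDH2, ALDH3A1 and ALDH3B1 fell in both lines, less in MHCC-97H, and ALDH1A2 and ALDH7A1 rose in both, more in MHCC-97H. With Flag-OGT, however, ALDH3A1 and ALDH3B1 were similarly low in both lines (log2 differences -0.19 and 0.02, not called). Their terms thus largely restate the differences between the controls, -1.13 and -0.54. For ALDH7A1 (-0.67 against 0.21) and ALDH2 (-1.13 against 0.54) the controls also differed more than the Flag-OGT lines. For ALDH1A2, ALDH1B1 and ALDH9A1 the Flag-OGT lines differed more. ALDH9A1 rose in MHCC-97H, while its rise in MHCC-97L was not called with a common sum (0.19, adjusted p = 0.0506) or median-of-ratios scaling (0.10, adjusted p = 0.207). The gain of OGT also differed, by 0.57 (adjusted p = 1.9e-04), and its part in these differences was not tested.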

How the results depend on the processing

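Depth is unknown, so the precision of values under about 1 FPKM, among them ALDH1A1 with Flag-OGT and ALDH1A2 without it, cannot be given. The 9 genes were recomputed under 18 alternatives in each comparison, or 17 for the difference between lines. Of these 801 values 749 kept direction and call, 35 lost the call, 7 gained it and 10 changed sign. In the Flag-OGT comparisons 0 changed sign, and the lost calls were those of ALDH9A1 in MHCC-97L with either scaling, and of genes that changed by less than 2-fold.

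The sign changes were in differences that were not called. They were ALDH3A2 with quantile normalization in the difference between lines (-0.0301), and ALDH1A2 with quantile normalization (0.0880) and ALDH3A2 with a common sum (0.0263) and median-of-ratios scaling (0.0475) between the controls. Between the Flag-OGT lines they were ALDH1A1 with quantile normalization (0.0613), ALDH3A2 with a common sum (0.16, now called) and median-of-ratios scaling (0.13), and, with 1 library left out in turn, ALDH1A1 (-0.229 to 0.0769) and ALDH3B1 (-0.0635 to 0.106). The cause was not tested.

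A 2-fold minimum, which only removes calls, left 3016 higher and 2167 lower of all genes in MHCC-97H, 2522 and 2181 in MHCC-97L, 1231 and 448 in the difference, 297 and 739 between controls and 575 and 486 between Flag-OGT lines. It left 1 higher among the 9 genes in MHCC-97L, in the difference and between Flag-OGT lines, and 0 higher and 2 lower between controls. A fit of the control groups alone called 1 higher. With each library left out, the 9 genes gave 4 higher and 5 lower in MHCC-97H, 3 and 6 in MHCC-97L, and 7 to 8 higher in the difference; between controls 1 to 2 were higher and 4 to 6 lower, and between Flag-OGT lines 4 to 5 higher and 0 to 2 lower.

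The replicate numbers are not stated to pair libraries; their deviations correlated with r of -0.21 to 0.31 between groups. A fit with the replicate number as a block called 6523 higher and 4913 lower of all genes in MHCC-97H, 6778 and 4695 in MHCC-97L, and 4 and 5, and 3 and 6, of the 9 genes.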
